A study of Mus musculus with 18 samples.

Results

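The SLC5 genes encode membrane carriers that use the inward sodium gradient to pull a solute into the cell. Described here are 7 of them in mouse mammary epithelium: Slc5a5 (iodide), Slc5a6 (biotin and pantothenate), Slc5a1 and Slc5a9 (sugars), Slc5a7 (choline), Slc5a8 (short monocarboxylates) and Slc5a3 (inositol). The 7 were chosen from the 13 SLC5 genes among 52489 annotated genes, with their measured levels in these libraries in view, so their levels and fold changes are given as a description, without a test. RNA came from mammary glands of nulliparous, untreated mice at 12 weeks of age, and the design text gives 6 animals. Cells stained for CD49f, CD61, EpCAM and lineage antigens (CD31, CD45 and Ter119) were sorted into basal cells (CD49f-hi/CD61+), alveolar progenitors (AP, the luminal progenitors, CD49f-lo/CD61+) and mature luminal cells that sense hormones (HSL, CD49f-lo/CD61-), with 6 libraries in each population and a sample number from 1 to 6 in every title. Every animal carried MMTV-Cre, a recombinase transgene under a mouse mammary tumour virus promoter that is active in mammary epithelium. The labels name no floxed allele, and no animals without the transgene are among these libraries.

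As background, the secretory epithelium of the breast takes up glucose for lactose synthesis and concentrates iodide into milk, and the sodium-iodide symporter encoded by Slc5a5 is known above all from the thyroid and the lactating gland. The cotransporters depend on Na,K-ATPase, which keeps sodium low inside the cell. Slc5a6 supplies cofactors of the carboxylases and of coenzyme A. The glands studied here were not lactating.

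The libraries held between 26516293 and 91095830 counts on genes. Markers of each population were highest in the libraries labelled with it: the summed level of 6 basal markers had a median of 34226 CPM (gene counts scaled to a common library total) in basal cells, 159 CPM in AP cells and 57.6 CPM in HSL cells. For 6 AP markers the medians were 114, 4697 and 275 CPM, and for 6 HSL markers 219, 1106 and 5653 CPM, in the same order. The libraries of sample 1 stood apart in these sums: their own markers summed to 22512 CPM in basal cells, 2215 in AP cells and 2832 in HSL cells, against at least 33057, 4082 and 5222 CPM in the other 5 libraries of each population, so values of sample 1 are given separately where they matter. Single markers went both ways there. In sample 1, Trp63 in basal, Elf5 and Csn2 in AP, and Foxa1 and Cited1 in HSL were above their population means. The rest of each population's own markers were below. In HSL sample 1, Foxa1 had 570 CPM against a mean of 539, and Ly6a 132 CPM against a mean of 1209. Among markers of other cell types, 5 leukocyte genes summed to at most 119 CPM and 5 endothelial genes to at most 132 CPM in any library, 5 adipocyte genes to at most 299.9 CPM and 4 erythroid genes to at most 201 CPM, both in basal libraries, and 5 fibroblast genes reached 912 CPM in basal, 1259 CPM in AP and 89.5 CPM in HSL libraries; their part in the levels given here was not tested. Fabp4 alone accounted for most of the adipocyte sum, at 177 ± 67.6 CPM in basal libraries (SD). There Adipoq reached at most 0.284 CPM, Plin1 0.530, Cidec 1.70 and Lep 7.18.

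The family split into 2 patterns. Slc5a5 and Slc5a6 were highest in HSL, intermediate in AP and lowest in basal cells, whereas Slc5a1, Slc5a7, Slc5a8 and Slc5a9 were highest in AP. Slc5a3 was listed at 0 in all 18 libraries. In bulk libraries a lower level can come from fewer cells of a type or from less RNA per cell, and these cannot be told apart.

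**Figure D1:**
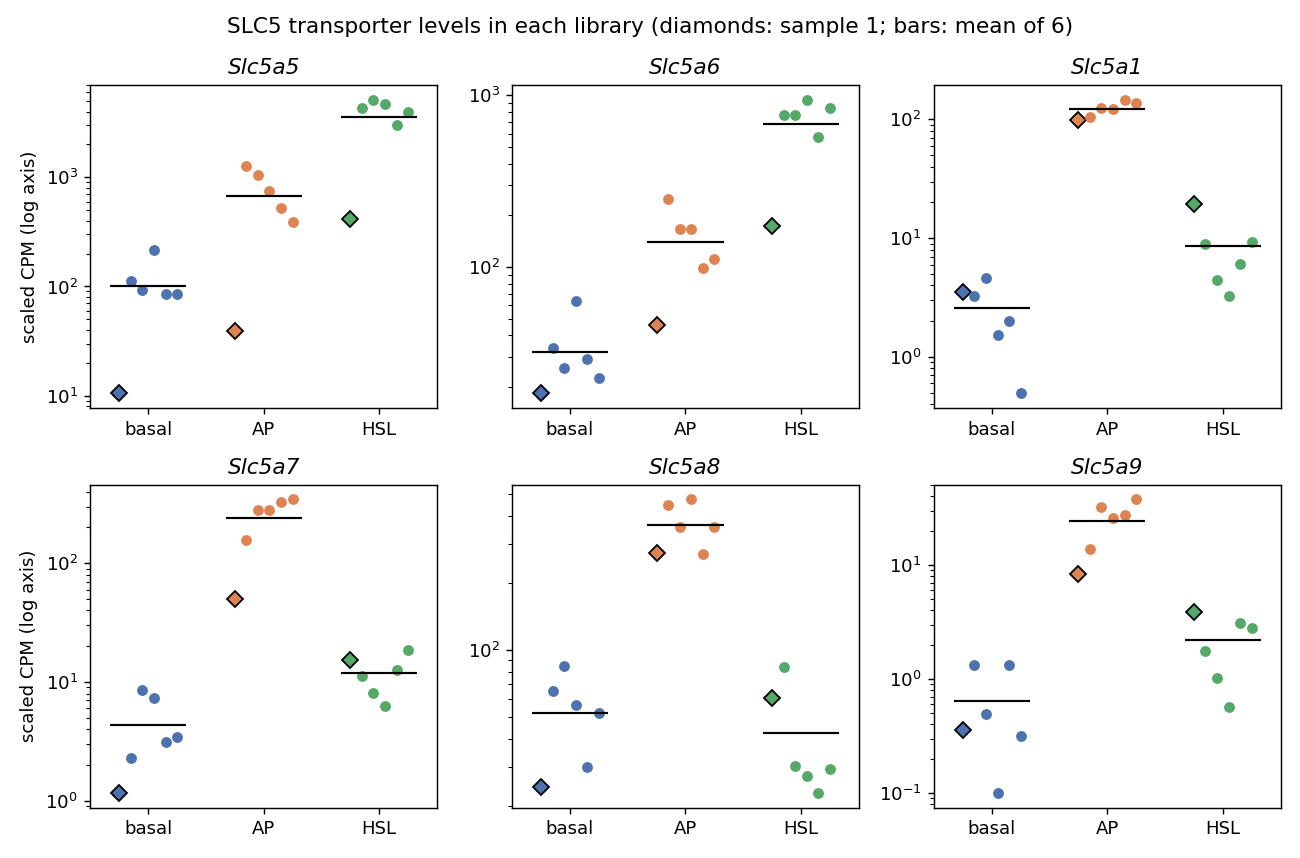
Scaled CPM of the 6 detected SLC5 genes (log axis, a different range in each panel) in the basal, AP and HSL libraries. Each point is 1 library, diamonds are sample 1, and bars are means of 6; the value of 0 for Slc5a9 in basal sample 4 is drawn at 0.1 CPM. Slc5a5 and Slc5a6 climb from basal to HSL, and the other 4 peak in AP.

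Slc5a5 lies on mouse chromosome 8, 70882889 to 70892757, minus strand (GRCm38), and its span overlaps no other annotated gene. It measured 10.5 CPM at the lowest, 89.5 at the median and 218 at the highest in basal libraries, 39.0, 632 and 1277 CPM in AP, and 412, 4170 and 5143 CPM in HSL. Every HSL library lay above every basal library, while the AP range overlapped both neighbours through the sample 1 libraries. The log2 fold changes were 2.73 ± 0.71 (SE, 6 libraries per population) for AP versus basal, 5.15 ± 0.79 for HSL versus basal and 2.42 ± 0.70 for HSL versus AP.

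Sample 1 held the lowest Slc5a5 of each population, with 10.5 CPM in basal cells, 39.0 in AP cells and 412 in HSL cells. The next lowest libraries had 85.8, 388 and 2982 CPM. The order basal, AP, HSL was nevertheless kept inside sample 1, and in each of the other 5 numbers: the ratio of HSL to AP ran from 3.40 to 10.5 and that of AP to basal from 3.41 to 11.3. Without sample 1 the mean was 4230 ± 817 CPM in HSL (SD, n = 5), 796 ± 368 in AP and 119 ± 56.3 in basal libraries, and the HSL versus AP fold stayed at 2.39 on the log2 scale.

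**Figure D2:**
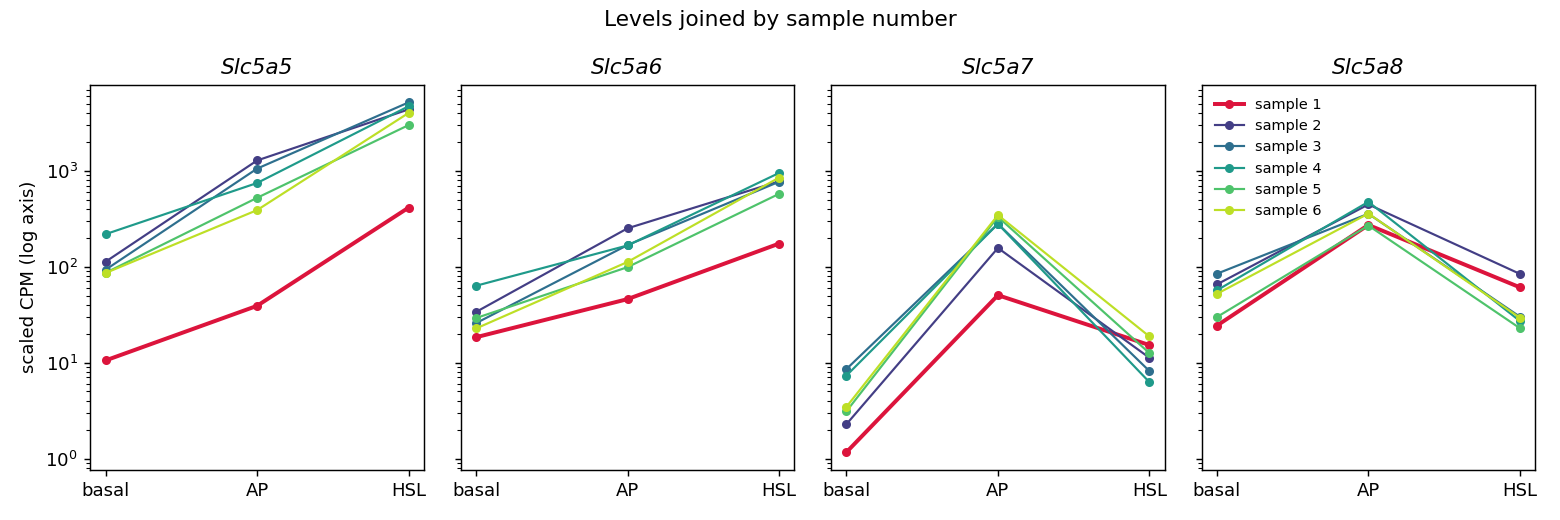
Levels of Slc5a5, Slc5a6, Slc5a7 and Slc5a8 in scaled CPM (shared log axis), with lines joining the basal, AP and HSL libraries of each sample number and sample 1 in red. All 6 lines climb from basal to AP to HSL for Slc5a5 and Slc5a6, and all 6 peak at AP for Slc5a7 and Slc5a8; sample 1 lies below the others for Slc5a5 and Slc5a6.

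Divided by the length of its merged exons, Slc5a5 reached 1227 ± 588 CPM per kb in HSL (SD, n = 6). That placed it 16th of 21896 protein-coding genes by mean level, or 28th when the deposited RPKM values were used. It ranked 132 in AP and 1532 in basal cells. A single transporter gene thus took a median of 0.381% of all gene counts in the HSL libraries, against 0.0661% in AP and 0.00873% in basal cells.

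In basal libraries the median of Slc5a5 was 2.15% of its HSL median, and the summed HSL markers there were 3.88% of theirs. In AP libraries Slc5a5 was at 15.2% and the HSL markers at 19.6%. How much of the lower Slc5a5 levels came from HSL cells in the other sorts was not tested.

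The other genes of iodide handling were mixed. Of 20 genes listed (iodide channels, organification enzymes, deiodinases and partners), 11 passed the filter on low counts. By edgeR's quasi-likelihood test with Benjamini-Hochberg adjustment over all 16471 genes tested, 3 were up and 3 down in AP relative to basal, 3 up and 5 down in HSL relative to basal, and 1 up and 5 down in HSL relative to AP. The background in these comparisons was 21.5% of all tested genes called higher and 23.1% lower for AP versus basal, 27.8% and 30.6% for HSL versus basal, and 19.8% and 20.1% for HSL versus AP. The median log2 fold of the 11 genes was -1.67 for HSL versus basal and -1.96 for HSL versus AP, where the medians of all tested genes were -0.06 and -0.01. Most of the 11 were at a few CPM or less, and the genes at these medians were near the floor. For HSL versus basal it was Slc26a7, at 0.434 CPM in basal and 0.126 in HSL (edgeR, adjusted p = 0.195). For HSL versus AP it was Dio2, at 0.137 CPM in AP and 0.0265 in HSL (edgeR, adjusted p = 0.171).

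Ano1, a calcium-activated chloride channel that also conducts iodide, was abundant in both luminal populations, at 1992 ± 419 CPM in AP and 1657 ± 175 in HSL against 538 ± 167 in basal libraries (SD, n = 6). Its log2 fold was 1.89 ± 0.21 for AP versus basal (edgeR, adjusted p = 8.44e-07) and 1.62 ± 0.21 for HSL versus basal (adjusted p = 2.87e-06). HSL and AP differed by -0.27 ± 0.21 (adjusted p = 0.325), which became -0.36 with an adjusted p of 0.0226 without sample 1. Iyd, which recovers iodide from iodotyrosines, was highest in HSL but only at 0.608 ± 0.284 CPM, and its log2 fold against basal was 5.60 ± 0.81 (edgeR, adjusted p = 1.06e-05).

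Kcnq1, the potassium channel subunit that supports iodide uptake in the thyroid, was named after its values were seen: it stood at 19.4 ± 4.39 CPM in AP against 1.55 ± 1.05 in HSL, with a log2 fold of -3.64 ± 0.50 (adjusted p = 1.86e-05), and it shares 45.1% of its span with other genes. The 4 thyroid follicle markers summed to at most 4.94 CPM in any library.

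Slc5a6 followed the pattern of Slc5a5 at a lower level. It lies on chromosome 5, 31036036 to 31048924, minus strand, and encodes the sodium-dependent multivitamin transporter. It measured 18.4 CPM at the lowest, 27.4 at the median and 63.2 at the highest in basal libraries, 45.8, 139 and 251 CPM in AP, and 174, 769 and 946 CPM in HSL. HSL libraries lay above all basal libraries, and the AP range overlapped both of the others. The log2 folds were 2.12 ± 0.41 for AP versus basal, 4.40 ± 0.46 for HSL versus basal and 2.28 ± 0.42 for HSL versus AP, and the order basal, AP, HSL held in 6 of 6 sample numbers, with a ratio of HSL to AP from 3.08 to 7.56.

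As with Slc5a5, sample 1 held the lowest library of every population, but less far below the rest: 174 CPM in HSL against 573 for the next lowest. Across the 18 libraries the centred log2 profiles of Slc5a5 and Slc5a6 differed by a root mean square of 0.91. Slc5a5 differed from each of the 4 AP-high members by 3.05 to 3.31.

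Reads of Slc5a6 have a close copy elsewhere in the genome. Gm6157, a processed pseudogene on chromosome 6, 70428929 to 70430825, minus strand, matched the Slc5a6 transcript over all of its 1897 bases at 97.79% identity. The stretch below shows how alike they are; of 20 stretches of 90 bases, which held 0 to 6 differences, it is one with the median number. Capitals mark the differing bases, and positions run from base 180 of the Slc5a6 coding sequence and base 181 of Gm6157 (GENCODE M21 sequences, sense strand).
Slc5a6: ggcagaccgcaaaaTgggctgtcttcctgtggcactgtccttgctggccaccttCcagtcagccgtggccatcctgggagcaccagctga
Gm6157: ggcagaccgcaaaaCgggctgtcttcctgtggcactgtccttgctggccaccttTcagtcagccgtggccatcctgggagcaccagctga
Only 2 of the 90 bases differ.

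Gm6157 was listed at 5.82 ± 3.12 CPM in basal cells, 27.8 ± 14.2 in AP cells and 135 ± 55.5 in HSL cells (SD, n = 6), which was 15.9 to 21.9% of Slc5a6 in every library. How the authors' counting treated shared reads is not given in the sources used here. The level of Slc5a6 is therefore uncertain by an amount that was not measured. With the counts of both added, the log2 folds of Slc5a6 were 2.15, 4.42 and 2.28. Atraid, which overlaps 10.6% of the exon bases of Slc5a6, measured 154 ± 33.1 CPM in basal cells, 140 ± 25.8 in AP cells and 139 ± 32.9 in HSL cells and passed the test in no comparison (edgeR, smallest adjusted p = 0.494).

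All 18 genes listed under biotin and pantothenate use were tested. In AP 5 were higher than in basal and none lower, with a median log2 fold of 0.11. HSL versus basal gave 8 higher and 4 lower, and HSL versus AP 6 higher and 5 lower, with medians of 0.15 and 0.20 on the log2 scale. The list also holds Slc19a2 and Slc19a3, which are thiamine transporters. Slc19a2 was among the 5 higher in AP than in basal, and Slc19a3 among the 4 lower in HSL than in basal. Both were among the 5 lower in HSL than in AP. Pcx, pyruvate carboxylase, a biotin enzyme, had 17.4 ± 7.58 CPM in basal cells, 127 ± 26.7 in AP cells and 270 ± 123 in HSL cells. Its log2 fold for HSL versus basal was 3.95 ± 0.35 (edgeR, adjusted p = 2.21e-08), and that for HSL versus AP was 1.09 ± 0.31 (adjusted p = 0.00882), so its order of populations was that of Slc5a6. Ppcs, which acts on pantothenate after its first phosphorylation, rose in HSL from 3.44 ± 0.978 CPM in basal to 8.77 ± 1.25 (adjusted p = 1.62e-05). Slc19a3, a thiamine transporter, was low in HSL at 0.117 ± 0.0885 CPM against 3.38 ± 1.33 in basal libraries (log2 fold -4.86 ± 0.62, adjusted p = 2.25e-06).

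Slc5a1, the sodium-glucose cotransporter SGLT1, which also carries galactose, had the tightest level among AP libraries. It lies on chromosome 5, 33104219 to 33162870, plus strand. Its values were 0.494 CPM at the lowest, 2.64 at the median and 4.63 at the highest in basal libraries, 98.4, 123 and 147 CPM in AP, and 3.26, 7.51 and 19.4 CPM in HSL. AP libraries stood above all others with no overlap, and the coefficient of variation there was 15.2%, against 23.5% to 67.4% for the other 5 detected members. The log2 folds were 5.56 ± 0.50 for AP versus basal, 1.73 ± 0.43 for HSL versus basal and -3.83 ± 0.46 for HSL versus AP.

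Basal and HSL libraries overlapped, and HSL was the higher in 5 of 6 sample numbers. The HSL library of sample 1 was the highest at 19.4 CPM and the others reached 9.26 CPM at most. In the same library the AP markers summed to 550 CPM, against 154 to 426 CPM in the other 5. The median of Slc5a1 in HSL was 6.11% of that in AP, and the AP markers there were at 5.85% of theirs; in basal libraries these shares were 2.15% and 2.43%. Their part in the low Slc5a1 levels was not tested.

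Slc5a9 encodes SGLT4, a carrier of mannose and other sugars, and was the least abundant detected member. It lies on chromosome 4, 111875375 to 111902918, minus strand. It measured 0 CPM at the lowest, 0.425 at the median and 1.33 at the highest in basal libraries, 8.38, 26.6 and 37.7 CPM in AP, and 0.573, 2.28 and 3.90 CPM in HSL. AP libraries again did not overlap the rest, although the AP library of sample 1 was the lowest of its population. The log2 folds were 5.22 ± 0.74, 1.75 ± 0.66 and -3.47 ± 0.68 for AP versus basal, HSL versus basal and HSL versus AP. Between Slc5a1 and Slc5a9 the coding sequences were 63% identical, and their centred profiles differed by 1.09.

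Of 12 sodium-independent sugar carriers listed, 10 were tested: 1 was up and 3 down in AP relative to basal, 4 up and 4 down in HSL relative to basal, and 2 up and none down in HSL relative to AP. Their median log2 fold for AP versus basal was -0.50, where that of all genes was 0.00. Slc2a4, the insulin-responsive GLUT4, fell from 153 ± 21.1 CPM in basal cells to 0.946 ± 0.826 in AP and 1.15 ± 0.105 in HSL libraries (SD, n = 6). Those are log2 folds of -7.32 ± 0.54 (edgeR, adjusted p = 4.34e-09) and -7.05 ± 0.54 (adjusted p = 4.05e-09).

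Slc2a10 was likewise lower in AP, at 4.04 ± 1.63 CPM against 16.3 ± 2.7 in basal (log2 fold -2.01 ± 0.26, edgeR, adjusted p = 3.74e-06). Slc50a1, the SWEET-type sugar exporter, rose in HSL to 115 ± 22.3 CPM from 62.2 ± 6.66 in AP (adjusted p = 8.77e-05). Slc2a1, the widespread GLUT1, was at 187 ± 49.7 CPM in basal cells, 221 ± 93.6 in AP cells and 215 ± 54.3 in HSL cells and passed the test in no comparison, the smallest adjusted p being 0.497.

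Of 13 genes listed on the route from glucose to lactose, 11 were tested, of which 6 were up and none down in AP relative to basal, 8 up and none down in HSL relative to basal, and 8 up and 2 down in HSL relative to AP. The median log2 folds of the list were 0.37, 1.07 and 0.58. B4galt1, the catalytic subunit of lactose synthase, was at 72.3 ± 13.5 CPM in basal cells, 170 ± 20.6 in AP cells and 327 ± 71.8 in HSL cells (HSL versus basal 2.18 ± 0.16, edgeR, adjusted p = 2.15e-09). Pgm2, a phosphoglucomutase, was highest in HSL at 149 ± 21.6 CPM against 53.1 ± 4.74 in basal cells (1.49 ± 0.13, adjusted p = 1.55e-08). Lalba, alpha-lactalbumin, the other subunit of lactose synthase, was named after its values were seen and is also among the AP markers. It was at 1.10 ± 0.646 CPM in basal cells, 99.5 ± 63.1 in AP cells (3.20 at the lowest and 179 at the highest) and 0.909 ± 0.540 in HSL cells. AP libraries did not overlap with the others, and the log2 folds were 6.49 ± 0.75 for AP versus basal (edgeR, adjusted p = 1.23e-06) and -6.82 ± 0.77 for HSL versus AP (adjusted p = 2.39e-06). Galt of the same route is wholly overlapped by another gene and was listed at 0.

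Slc5a9 carries mannose, and 7 genes of mannose and fructose handling were tested. In AP 4 were higher and 1 lower than in basal, in HSL 4 higher and 3 lower than in basal, and HSL versus AP gave 2 higher and 2 lower. Their median log2 folds were 0.23, 0.40 and 0.12. Pmm1, a phosphomannomutase, peaked in AP as Slc5a9 did, at 73.7 ± 10.3 CPM against 32.1 ± 6.48 in basal and 21.7 ± 4.49 in HSL (HSL versus AP -1.76 ± 0.15, edgeR, adjusted p = 2.25e-07). Mpi, the isomerase that joins mannose to fructose phosphates, peaked in HSL at 69.8 ± 16.1 CPM against 29.2 ± 3.41 in AP (1.26 ± 0.18, adjusted p = 2.39e-05).

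Slc5a7 encodes the high-affinity choline transporter best known from cholinergic nerve endings, and its AP versus basal fold was the highest of the 6 detected members, within the standard error of that of Slc5a1. It lies on chromosome 17, 54273590 to 54299034, minus strand, with no overlapping gene. It measured 1.17 CPM at the lowest, 3.29 at the median and 8.57 at the highest in basal libraries, 50.4, 279 and 345 CPM in AP, and 6.25, 11.9 and 18.7 CPM in HSL. The AP libraries did not overlap the others, and sample 1 was their lowest. The log2 folds were 5.80 ± 0.55 for AP versus basal, 1.48 ± 0.47 for HSL versus basal and -4.32 ± 0.51 for HSL versus AP, and the ratio of AP to basal ran from 32.6 to 106 within the 6 sample numbers.

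HSL was above basal in 4 of 6 sample numbers only. In HSL the median of Slc5a7 was 4.26% of that in AP, below the 5.85% of the AP markers, and in basal libraries it was 1.18% against 2.43%. Contributions of AP cells to those levels were not tested.

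Because Slc5a7 is a neuronal gene, 6 Schwann cell and neuron markers were summed: they ranged from 201 to 517 CPM in AP, 147 to 232 in basal and 8.04 to 45.0 in HSL libraries. Sox10 alone accounted for most of that sum, at 371 ± 104 CPM in AP, 169 ± 32.8 in basal and 20.5 ± 13.1 in HSL. None of the 6 was at 0 throughout a population. The part of nerve or Schwann cell RNA in the Slc5a7 level was not tested.

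Chat, which makes acetylcholine, had at most 5 counts in any library and was not tested. Slc18a3, which loads it into vesicles, was listed at 0, but its span is wholly inside another gene, so that this value says nothing on its expression. Of 16 genes of acetylcholine synthesis and signalling 7 were tested: 3 were up and 1 down in AP relative to basal, 4 up and 3 down in HSL relative to basal, and 3 up and 3 down in HSL relative to AP. The median log2 folds were 1.17, 1.73 and 0.05, over few genes.

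Among the receptors, Chrm3, a muscarinic receptor, was highest in basal at 10.3 ± 5.06 CPM, lower in AP at 2.80 ± 0.814 and lowest in HSL at 0.189 ± 0.121 (HSL versus basal -5.77 ± 0.46, edgeR, adjusted p = 6.72e-09). Chrm1 peaked in AP at 32.4 ± 8.03 CPM against 10.4 ± 1.30 in HSL (HSL versus AP -1.64 ± 0.20, adjusted p = 6.25e-06). Chrnb1, a nicotinic receptor subunit, was higher in both luminal populations, at 63.4 ± 17.8 CPM in AP and 65.8 ± 18.7 in HSL against 14.1 ± 3.21 in basal (AP versus basal 2.17 ± 0.25, adjusted p = 1.39e-06).

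Of 20 genes listed for other routes of choline use, 17 were tested, of which 6 were up and 2 down in AP relative to basal, 6 up and 3 down in HSL relative to basal, and 3 up and 3 down in HSL relative to AP. Median log2 folds were 0.39, 0.16 and -0.05. Flvcr1, a choline carrier of the major facilitator superfamily, peaked in AP as Slc5a7 did: 115 ± 23.4 CPM against 64.2 ± 21.7 in basal and 30.2 ± 4.78 in HSL (HSL versus AP -1.93 ± 0.22, edgeR, adjusted p = 2.39e-06).

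Slc44a3 and Slc44a4, of the choline transporter-like family, were luminal. Slc44a3 stood at 30.3 ± 4.67 CPM in basal cells, 142 ± 30.2 in AP cells and 160 ± 25.4 in HSL cells (AP versus basal 2.23 ± 0.16, edgeR, adjusted p = 3.09e-09), and Slc44a4 at 12.0 ± 6.10, 83.7 ± 54.7 and 412 ± 113 CPM (HSL versus basal 5.10 ± 0.45, adjusted p = 2.58e-08). Chka, the kinase that commits choline to phosphatidylcholine, was at 160 ± 76.6, 241 ± 103 and 144 ± 56.8 CPM and passed in no comparison, although AP versus basal passed with an adjusted p of 0.00354 and HSL versus AP with 0.00245 when the sample number was a replicate block.

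Slc5a8 carries lactate, pyruvate and short-chain fatty acids with sodium. It lies on chromosome 10, 88885992 to 88929515, plus strand, and shares no span with another gene. Its values were 24.3 CPM at the lowest, 54.3 at the median and 84.3 at the highest in basal libraries, 268, 356 and 473 CPM in AP, and 22.8, 29.7 and 84.1 CPM in HSL. AP libraries stood clear of both other populations, which overlapped each other. The log2 folds were 2.80 ± 0.36 for AP versus basal and -3.09 ± 0.36 for HSL versus AP.

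HSL versus basal was -0.29 ± 0.33 for Slc5a8, with HSL lower in 4 of 6 sample numbers; the 2 exceptions were samples 1 and 2, whose HSL libraries measured 60.9 and 84.1 CPM against 22.8 to 30.1 in the other 4. Of the AP-high members it kept the highest share outside AP in basal cells, where its median was 15.2% of that in AP while the AP markers were at 2.43%. Its median share in HSL was 8.34%.

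Of 14 genes listed for proton-coupled carriers of the same substrates and their partners, 13 were tested: 1 was up and 5 down in AP relative to basal, 3 up and 6 down in HSL relative to basal, and 3 up and 2 down in HSL relative to AP, with median log2 folds of -0.63, -0.14 and 0.27. Emb, embigin, a chaperone of these carriers, fell from 352 ± 44.0 CPM in basal cells to 4.14 ± 1.51 in AP and 2.73 ± 1.71 in HSL (AP versus basal -6.41 ± 0.38, edgeR, adjusted p = 3.29e-10). Bsg, basigin, of the same list, was named after its values were seen and went the other way. It rose from 599 ± 72.9 CPM in basal cells to 1273 ± 262 in AP and 1620 ± 441 in HSL (AP versus basal 1.09 ± 0.18, edgeR, adjusted p = 9.08e-05). Slc16a11 fell from 21.5 ± 6.08 to 1.55 ± 0.666 CPM in AP (-3.79 ± 0.38, adjusted p = 1.86e-07).

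Ldhb, a lactate dehydrogenase, was at 60.9 ± 9.69 CPM in basal cells, 27.1 ± 7.77 in AP cells and 1.29 ± 1.41 in HSL cells (HSL versus AP -4.35 ± 0.47, edgeR, adjusted p = 1.55e-06). Slc16a7, a carrier with high affinity for pyruvate, was at 17.1 ± 4.47, 11.1 ± 1.55 and 1.23 ± 1.12 CPM (HSL versus AP -3.15 ± 0.44, adjusted p = 1.89e-05). Both were thus lower in HSL than in AP, as Slc5a8 was, but neither had its AP peak. Against basal, the log2 folds in HSL were -5.52 ± 0.49 for Ldhb and -3.78 ± 0.45 for Slc16a7, but only -0.29 ± 0.33 for Slc5a8.

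Slc5a3, the sodium-myo-inositol cotransporter SMIT1, could not be read from these files. Its span on chromosome 16, 92058322 to 92087473, plus strand, lies wholly inside Mrps6, and its count was 0 in each of the 18 libraries. Of 1264 protein-coding genes lying wholly inside other genes, 1134 (89.7%) were at 0 throughout, against 2707 of 12082 (22.4%) without any overlap. The value of 0 is therefore no evidence that Slc5a3 was not expressed. Mrps6, the mitochondrial ribosomal gene that contains it, was listed at 105 ± 18.5 CPM in basal cells, 93.1 ± 18.6 in AP cells and 87.0 ± 35.6 in HSL cells.

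Of 10 inositol and osmolyte genes listed, 7 were tested, with none up and 4 down in AP relative to basal, 2 up and 4 down in HSL relative to basal, and 3 up and 1 down in HSL relative to AP. Median log2 folds were -0.54, -1.73 and 0.34. Slc2a13, the proton-coupled inositol carrier, measured 56.0 ± 18.9 CPM in basal against 0.326 ± 0.443 in AP and 0.260 ± 0.247 in HSL (AP versus basal -7.44 ± 0.73, edgeR, adjusted p = 1.71e-07). Slc6a6, the taurine carrier, measured 379 ± 101 CPM in basal cells, 35.3 ± 9.17 in AP cells and 90.6 ± 36.0 in HSL cells (AP versus basal -3.42 ± 0.27, adjusted p = 1.20e-08). Cdipt, which builds phosphatidylinositol, was higher in HSL at 187 ± 19.2 CPM against 111 ± 6.14 in AP (0.75 ± 0.09, adjusted p = 4.43e-06).

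**Figure D3:**
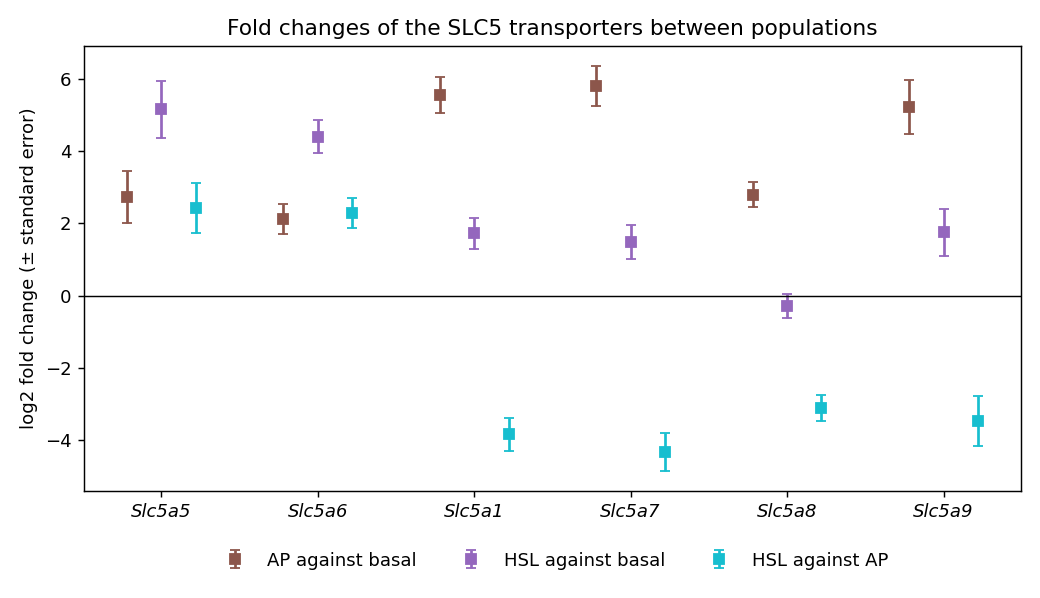
Log2 fold changes of the 6 detected SLC5 genes with standard errors, for AP versus basal, HSL versus basal and HSL versus AP. Values above 0 are higher in the first-named population; Slc5a5 and Slc5a6 lie above 0 in HSL versus AP and the other 4 lie below it.

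Side by side, the log2 folds of all 6 detected members were above 0 in AP versus basal, and those of 5 of 6 in HSL versus basal. In HSL versus AP, 2 were above 0 and 4 below. Since the genes were chosen on these measurements, nothing more is read from these directions. These comparisons share their libraries in pairs, so each is given with its own values only.

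**Figure D4:**
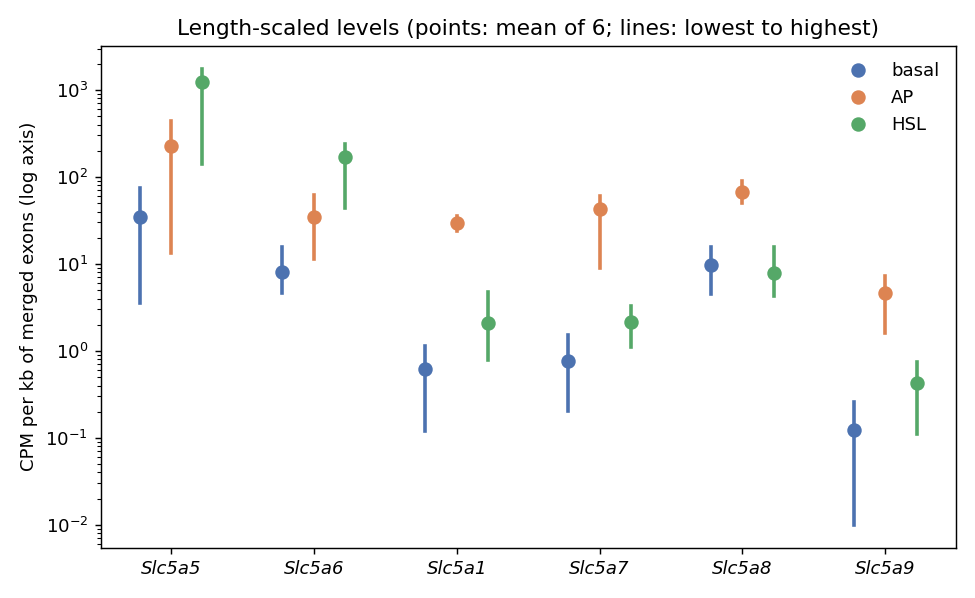
Level per length of the 6 detected SLC5 genes in CPM per kb of merged exons (log axis). Points are means of 6 libraries and lines run from the lowest to the highest library, with the 0 of Slc5a9 drawn at 0.01; Slc5a5 has the highest mean in every population.

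On the scale of CPM per kb, which allows genes to be compared, the order of means in basal cells was Slc5a5 (34.5 ± 22.9), Slc5a8 (9.76 ± 4.20), Slc5a6 (8.05 ± 4.03), Slc5a7 (0.765 ± 0.522), Slc5a1 (0.627 ± 0.367) and Slc5a9 (0.123 ± 0.107). Slc5a8 and Slc5a6 did not differ beyond their spread (SD, n = 6), nor did Slc5a7 and Slc5a1.

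In AP the order was Slc5a5 (229 ± 154 CPM per kb), Slc5a8 (67.9 ± 16.0), Slc5a7 (42.5 ± 20.2), Slc5a6 (35.1 ± 17.7), Slc5a1 (29.7 ± 4.51) and Slc5a9 (4.68 ± 2.15). The 4 genes from Slc5a8 to Slc5a1 had overlapping ranges between neighbours. By the deposited RPKM values, Slc5a6 moved up to second place in AP and in basal cells and Slc5a8 down to place 4 and place 3.

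In HSL Slc5a5 (1227 ± 588 CPM per kb) and Slc5a6 (170 ± 69.2) were followed by Slc5a8 (7.95 ± 4.61), Slc5a7 (2.13 ± 0.809), Slc5a1 (2.09 ± 1.41) and Slc5a9 (0.423 ± 0.249). Slc5a7 and Slc5a1 again did not differ beyond their spread. The share of Slc5a5 in the summed level per kb of the 6 genes averaged 84.3% ± 7.60 in HSL (SD, n = 6), 48.4% ± 20.4 in AP and 58.3% ± 16.8 in basal cells. In the AP library with the smallest share, Slc5a5 made up 12.1%. Through the sample 1 libraries alone, the range of Slc5a5 overlapped that of the next gene in each population.

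The other 6 SLC5 genes were at or near 0. Slc5a2, the renal SGLT2, had at most 50 counts in any library, Slc5a11 at most 15, Slc5a12 at most 4, and Slc5a4a and Slc5a4b at most 1, and none passed the filter. Slc5a10 passed at 1.09 CPM in basal cells, 0.623 in AP cells and 0.739 in HSL cells on average and was called in no comparison, the smallest adjusted p being 0.085 (edgeR); it shares 53.8% of its span with other genes. The coding sequence of Slc5a4b was 72.3% identical to that of Slc5a1, and that of Slc5a12 was 58.9% identical to that of Slc5a8.

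The machinery that serves these carriers was mixed. Of 6 Na,K-ATPase subunits 5 were tested: AP versus basal and HSL versus basal each gave 1 higher and 3 lower, and HSL versus AP 1 higher and none lower, with medians of -1.08, -0.59 and -0.18. Atp1b1, a beta subunit, rose from 6.18 ± 2.42 CPM in basal cells to 82.7 ± 14.5 in AP and 73.1 ± 32.9 in HSL (AP versus basal 3.74 ± 0.30, edgeR, adjusted p = 1.56e-08).

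Of 10 genes for trafficking and regulation of SLC5 proteins 8 were tested, with 2 up and 2 down in AP relative to basal, 3 up and none down in HSL relative to basal, and 3 up and 1 down in HSL relative to AP. Their medians were 0.16, 0.34 and 0.19. Slc9a3r1, a PDZ scaffold of apical carriers, was at 114 ± 22.8 CPM in basal cells, 477 ± 43.4 in AP cells and 422 ± 49.3 in HSL cells (AP versus basal 2.07 ± 0.13, edgeR, adjusted p = 8.91e-10). Sgk1, a kinase that raises membrane carriers, was highest in HSL at 1252 ± 330 CPM against 611 ± 215 in AP (1.03 ± 0.29, adjusted p = 0.00759). Over all 115 tested genes of these lists, 32 were up and 24 down in AP relative to basal, 46 and 35 in HSL versus basal, and 35 and 24 in HSL versus AP. Of all 16471 genes tested, 21.5% were called higher and 23.1% lower in AP versus basal. The shares were 27.8% and 30.6% for HSL versus basal and 19.8% and 20.1% for HSL versus AP.

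The genes whose centred log2 CPM profiles over the 18 libraries lay closest to each member were sought among 10198 genes. Nearest to Slc5a5 was Prom1, which encodes the membrane protein prominin 1, at a root mean square difference of 0.28, where the median over all genes was 2.60. Prom1 measured 37.4, 245 and 1172 CPM in basal, AP and HSL and shares 22.4% of its span with other genes. Cyp3a57 (0.35) and the lincRNA A830008E24Rik (0.38) came next. For Slc5a6 the closest were its own copy Gm6157 (0.12), Rab37 (0.31) and Mtmr7 (0.33).

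Slc5a1 lay closest to Bglap3 (0.46), Kit (0.55) and Wfdc18 (0.61), and Slc5a7 to Aldh1a3 (0.34), Cck (0.45) and Btn1a1 (0.50). Kit encodes the stem cell factor receptor and was one of the 6 AP markers, as was the retinaldehyde dehydrogenase gene Aldh1a3. Slc5a8 lay closest to Fads3 (0.37), Met (0.46) and Rnf125 (0.51). For Slc5a9 the nearest genes were farther off, Unc5cl at 0.77, Slco1a5 at 0.89 and Acss1 at 1.07. With a prior count of 0.5 in place of 2, Ehf replaced Wfdc18 and Cel replaced Acss1 as the last of the 3, and no other neighbour changed.

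The sequences just before the start sites of 4 members are shown because 3 of them (Slc5a1, Slc5a7 and Slc5a8) peaked in AP and Slc5a5 in HSL. Each is the 250 bases before the start in RefSeq (GRCm38.p6), printed 5′ to 3′ on the gene's strand. They are at chr5:33103969-33104218 (plus), chr17:54299035-54299284 (minus), chr10:88885742-88885991 (plus) and chr8:70892758-70893007 (minus). Both strands were searched for GGAAG (the ETS core, bound by factors such as Elf5), TGTTTAC or TGTTTGC (forkhead), AGGTCA (nuclear receptors), TTCNNNGAA (STAT) and TATAAA, and capitals mark the matches on either strand.
Slc5a1: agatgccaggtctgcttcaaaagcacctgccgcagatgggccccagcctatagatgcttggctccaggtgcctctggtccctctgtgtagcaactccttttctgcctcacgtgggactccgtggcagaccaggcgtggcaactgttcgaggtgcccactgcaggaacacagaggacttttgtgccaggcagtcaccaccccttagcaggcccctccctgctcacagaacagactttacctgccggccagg
Slc5a7: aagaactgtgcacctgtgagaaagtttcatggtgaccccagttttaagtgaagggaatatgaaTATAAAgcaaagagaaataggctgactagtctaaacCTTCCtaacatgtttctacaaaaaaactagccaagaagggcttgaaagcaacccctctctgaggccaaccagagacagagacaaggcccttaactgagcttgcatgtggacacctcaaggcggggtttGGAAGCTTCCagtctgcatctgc
Slc5a8: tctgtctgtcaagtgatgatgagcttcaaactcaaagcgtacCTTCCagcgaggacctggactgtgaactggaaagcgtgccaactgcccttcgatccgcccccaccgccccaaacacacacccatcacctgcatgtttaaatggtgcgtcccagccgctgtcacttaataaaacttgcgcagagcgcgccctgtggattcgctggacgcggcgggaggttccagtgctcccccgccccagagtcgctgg
Slc5a5: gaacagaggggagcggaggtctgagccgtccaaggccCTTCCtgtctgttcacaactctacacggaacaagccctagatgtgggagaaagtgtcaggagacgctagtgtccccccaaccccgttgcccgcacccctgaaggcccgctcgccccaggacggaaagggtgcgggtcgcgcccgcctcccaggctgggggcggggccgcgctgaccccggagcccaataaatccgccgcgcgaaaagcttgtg
The window of Slc5a1 held none of these motifs. That of Slc5a7 held 3 matches to GGAAG, of which a pair meet on opposite strands, and 1 to TATAAA. Those of Slc5a8 and Slc5a5 held 1 match to GGAAG each. Of the members whose windows are not printed, Slc5a3 had 1 match to GGAAG, and Slc5a6, with 2 start sites, had 1 to GGAAG before the first and 1 to the forkhead motif before the second.

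These matches are a description and not sites of binding. Of all 32841 windows of this length, 64.1% held GGAAG, 12.4% TATAAA, 14% AGGTCA, 7.3% the forkhead motif and 7.02% the STAT motif. The 4 windows differed more in their CpG dinucleotides: 21 before Slc5a5, 17 before Slc5a8, 6 before Slc5a1 and 1 before Slc5a7, where the median over all windows was 6 and the quartiles were 2 and 16. Of the 7 members 6 had an entry; Slc5a9 had none.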

How the data were processed

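RNA was sequenced from 18 sorted libraries, 6 each of basal, AP and HSL cells, made from low-input cDNA (Smart-Seq V4) with Nextera XT, which does not mark strand, per the labels' protocols. Each deposited file lists 52636 identifiers with raw counts from the authors, per the file headers, beside RPKM values and gene widths. The submitters' processing notes name the build GRCm38; which aligner and counter were used is not given in the sources used here. The deposited widths, another quantity given in bases, equalled the genomic span for 85.6% of genes, so the deposited RPKM values served only as an alternative scale. Of the identifiers 52489 matched GENCODE M21, which gave symbols, exons and coordinates; 147 did not, held 0.00303 to 0.00677% of counts and were left out.

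Counts were filtered with filterByExpr (minimum count 10; 16471 genes, 6 of the 7 members), scaled by TMM and tested with edgeR 4.0.16 (R 4.3.3) by the quasi-likelihood F test over all 18 libraries with 1 mean per population and Benjamini-Hochberg adjustment; a call is an adjusted p under 0.05. CPM are TMM-scaled; folds are log2 and above 0 where the population named first is the higher. The pipeline was tested on simulated data. Alternatives were DESeq2 1.42.0, limma-voom 3.58.1, other scalings, no filter, the sample number as a block, fewer libraries and, added after the data were seen, Slc5a6 counted with Gm6157. Tables were joined with Python 3.11.15 and pandas 2.3.3.

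The design text gives 6 animals but does not tie a sample number to 1 animal, so p-values measure the spread between these libraries. Deviations from the population means correlated between same-numbered libraries at 0.127 to 0.630 in all 18 pairs. The same number gave the highest correlation in 15 of the 18, and for sample 6 in no comparison. The numbers were taken to pair the libraries in the ratios within sample numbers and in the replicate block. Unless named as a replicate block, SE and adjusted p come from fits that ignore this pairing. With the block, the SE of Slc5a5 for AP versus basal was 0.254 in place of 0.709.

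Members and lists were chosen with earlier results of these data known. Named besides members: up to 4 called genes per list with the smallest adjusted p and up to 2 uncalled ones at 1 CPM or more, of which part are described and some are not reported here; and the 3 nearest profiles per member, among genes of at least 10 CPM in their highest population.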

Additional observations from a re-analysis of the deposited data

Results flagged for a closer look

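A library was set apart where its gap to the nearest of the other 5 exceeded 0.625 of the range of its population. Of 114 groups of 6 libraries tested this way, 16 had such a library, and 10 of the 16 were libraries of sample 1. The cutoff is set for about 1 in 20 groups of independent, normally distributed values. These groups share their libraries and were taken on the CPM scale, so 1 in 20 is no chance rate for them. Among members Slc5a1 was highest in HSL sample 1 at 19.35 CPM, where the others had 3.26 to 9.26 CPM. Slc5a6 was highest in basal sample 4 at 63.16 CPM, where the others had 18.4 to 33.7 CPM.

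In the AP libraries of sample 1, Ano1 at 1196 CPM, Kcnq1 at 10.83 and Chrnb1 at 28.07 were the lowest of 6, and Slc2a4 at 2.474 CPM was the highest. In the HSL library of sample 1, Pmm1 at 30.2, Emb at 6.015 and Ldhb at 4.11 CPM were the highest and Slc44a3 at 112.3 the lowest. Cdipt was highest in basal sample 1 at 146.4 CPM. In other samples the high values were Slc2a13 in AP sample 3 (1.219 CPM), Iyd in basal sample 4 (0.0568 CPM, with the others at 0), Slc44a4 in basal sample 4 (23.65 CPM), Chrm3 in basal sample 3 (20.44 CPM) and Sgk1 in HSL sample 2 (1903 CPM).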

How the results depend on the processing

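Of 273 alternative values of the members' log2 folds, 270 moved by less than the spread between libraries (1 SD of log2 CPM) and kept their direction; 3 moved further, all with samples 4 to 6 alone: Slc5a1 to 6.58 (AP against basal) and -4.5 (HSL against AP), and Slc5a8 to -3.83 (HSL against AP). That spread includes sample 1 and is a wide bound for Slc5a5. Its AP against basal fold of 2.73 counted as unmoved at 3.45 with samples 1 to 3 and at 2.11 with samples 4 to 6. With samples 1 to 3 alone (the file names number these libraries in 2 runs, and the labels call neither a batch), 3718, 5674 and 1491 genes were called for AP against basal, HSL against basal and HSL against AP, in place of 7356, 9621 and 6571, and 35, 42 and 16 of the 115 listed genes in place of 56, 81 and 59; these fits hold 3 libraries per population. Leaving out 1 sample number gave 6205 to 8352, 8546 to 10651 and 5207 to 7898 genes. With the replicate block the paired fit called 9072, 11082 and 8374 genes; the log2 folds of Slc5a5 were then 2.59, 5.22 and 2.63. Scaling by total counts moved the median log2 fold of all genes from 0.00 to 0.14 for AP against basal and from -0.01 to -0.18 for HSL against AP, and the share of higher among HSL against AP calls from 49.6% to 35.6%; it was 29.7% with samples 1 to 3. Of 96 values of the named list genes, 19 lost their call with samples 1 to 3 and at most 4 under any other setting. Depth limits the low values: Slc5a9 had 0 to 118 counts in basal libraries.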
